A study of Homo sapiens with 6 samples.

Results

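CTCF and 8 genes for architectural factors that work beside it were described in total RNA of human SEM leukemia cells. The 9 genes were chosen by symbol, and all 9 were found among the 57820 genes of the deposited count and TPM tables. They are CTCF, its paralog CTCFL, the zinc-finger factors ZNF143, MAZ, YY1, PATZ1 and VEZF1, and the chromatin factors ADNP and CHD8. SEM is an established B-cell acute lymphoblastic leukemia line. Each group had 3 libraries. The CTCF-WT cells carried endogenous CTCF fused to miniAID and mClover3, and per the methods of the study also an inducible HA-tagged wild-type CTCF, which their label does not name. The CTCF-dRBR cells carried the same fusion with TRE3G-HA-CTCF-dRBR, a transgene under a doxycycline promoter whose product lacks the RNA-binding region (RBR). Both groups shared constitutive OsTIR1(F74G), which with the auxin analog 5-Ph-IAA directs the fusion protein to degradation, and per the methods both received 5-Ph-IAA for 24 h, the last 18 h of it with doxycycline. Both lines were therefore depleted of endogenous CTCF protein, and no untreated cells are compared here. Neither the labels nor the methods say whether the 3 libraries of a group came from separate cultures, so the p-values measure the spread between these libraries, which may be technical.

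CTCF is a zinc-finger protein that binds DNA at its motif, blocks the passage of cohesin and thereby holds loop and domain borders in place, and it insulates genes from enhancers. Several other factors share this work. ZNF143 and YY1 are found at promoter ends of loops, MAZ, PATZ1 and VEZF1 bind GC-rich or G-run motifs that often lie near CTCF sites, CHD8 is a remodeler that binds CTCF at insulator sites, and ADNP with the remodeler CHD4 competes with CTCF for sites in repeats. CTCFL, also called BORIS, reads much the same motif as CTCF and is normally limited to germ cells.

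The part of CTCF that the 2 groups differ in is shown first, since it is the designed difference. CTCF lies on chromosome 16 at 67596370 to 67673080, plus strand, of GRCh37 (ENSG00000102974.10). The RBR covers residues 578 to 617, at the C-terminal side of the zinc fingers, and its 120 coding bases lie in exons 10 and 11 of 12, at chr16:67663331-67663436 and chr16:67670593-67670606. The 11 codons for lysine and arginine, the basic residues, are in capitals in the reference sequence, read 5′ to 3′:
RBR of CTCF: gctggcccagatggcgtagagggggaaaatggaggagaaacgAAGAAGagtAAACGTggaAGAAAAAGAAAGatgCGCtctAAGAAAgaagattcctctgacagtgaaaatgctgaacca
Of these codons 7 encode lysine and 4 arginine, and all 11 lie in the middle of the stretch. The 120 bases are 5.50% of the coding sequence and 3.15% of the reference transcript. The tables give 1 total for the gene CTCF, which does not separate reads of the endogenous fusion from reads of the transgene. The deletion therefore cannot be checked from a gene total, nor can the degradation, which acts on the protein.

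Total expected counts were 51732177 to 53166735 in the CTCF-WT libraries. In CTCF-dRBR they were 30034505 for replicate 1, 48912209 for replicate 2 and 50457168 for replicate 3. The libraries differed in a trend over the GC content of transcripts. Across genes, Spearman's rho between GC content and a library's log2 deviation from the 6-library mean was 0.70, 0.67 and 0.33 in CTCF-WT replicates 1 to 3 and -0.78, -0.41 and 0.50 in CTCF-dRBR replicates 1 to 3. CTCF-dRBR replicate 1, the shallowest library, stood farthest apart. The labelled cell type was borne out by its markers, as all 8 B-ALL markers passed the filter and their summed level was 1150 to 1295 CPM in CTCF-WT and 971 to 1264 CPM in CTCF-dRBR. Of 16 markers of T, myeloid, erythroid, epithelial and fibroblast cells only LYZ reached 1 CPM (at most 6.58 CPM), and CD3D and HBA1 were at 0 in all 6 libraries. In bulk RNA, fewer cells of a type and less RNA per cell cannot be told apart.

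Levels of the members relative to each other were read from TPM, which is scaled by transcript length. MAZ was the most abundant. Its mean was 112 ± 28.9 TPM over the CTCF-WT libraries and 127 ± 22.6 TPM over those of CTCF-dRBR (SD, n = 3 each, as for all group values here). YY1 (42.1 ± 18.6 and 70.0 ± 21.6 TPM) and CTCF (37.4 ± 16.0 and 61.7 ± 11.0 TPM) followed. VEZF1 (22.6 ± 10.2 and 42.5 ± 8.86 TPM) and CHD8 (22.6 ± 7.90 and 34.7 ± 11.0 TPM) were next, above ZNF143 (13.4 ± 7.18 and 24.5 ± 7.96 TPM), ADNP (10.1 ± 3.04 and 14.9 ± 4.43 TPM) and PATZ1 (8.90 ± 1.55 and 8.49 ± 2.702 TPM). By mean TPM over the 6 libraries CTCF lay above 92.4% of the protein-coding genes with any TPM, MAZ above 97.2% and PATZ1 above 66.4%.

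**Figure D1:**
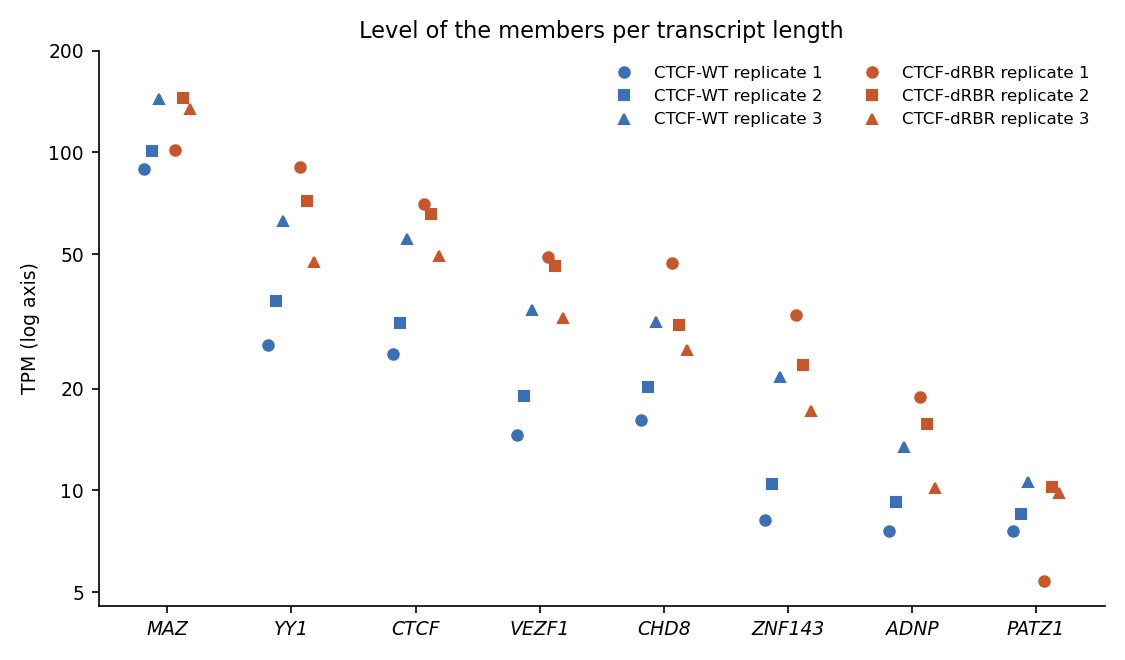
TPM of 8 members in each library on a log axis, blue for CTCF-WT and orange for CTCF-dRBR, with a symbol for each replicate (CTCFL, at most 0.34 TPM, is left out). MAZ lies above all other members within each of the 6 libraries. The order of YY1 and CTCF, of VEZF1 and CHD8, and of ADNP and PATZ1 changes between libraries.

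The order held library by library for most neighbours. MAZ was above YY1, CTCF above VEZF1, CHD8 above ZNF143 and ZNF143 above ADNP in 6 of 6 libraries. YY1 was above CTCF in 5 of 6, ADNP above PATZ1 in 5 of 6 and VEZF1 above CHD8 in 4 of 6. The differences between these neighbours were not tested. The share of TPM that a library gave to protein-coding genes differed between the libraries. It was 30.2%, 35.8% and 52.4% in CTCF-WT and 63.2%, 54.5% and 43.5% in CTCF-dRBR, the rest being genes of other types. By an exact two-sided permutation test no member's TPM differed between the groups at p under 0.2, where 0.1 is the smallest p that 3 against 3 allows. Rescaled over protein-coding genes alone, CTCF was at 92.3 ± 11.9 and 115 ± 4.87 TPM (exact permutation p = 0.1). VEZF1 was at 55.6 ± 8.60 and 78.9 ± 5.24 TPM (exact permutation p = 0.1). The share of all genes at this p is not given here. MAZ was at 284 ± 10.8 and 246 ± 76.2 TPM on this scale (exact permutation p = 0.6). MAZ thus had the higher mean in CTCF-WT when rescaled and in CTCF-dRBR on the deposited scale.

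CTCFL was close to absent. Its expected counts were 1, 1 and 7 in CTCF-WT and 21, 2 and 7 in CTCF-dRBR, against 8158 to 13606 for CTCF, and its highest TPM was 0.34. The highest count, in CTCF-dRBR replicate 1, has an exact Poisson 95% interval of 13.0 to 32.1, which covers counting error only. The sums were 9 counts in CTCF-WT and 30 in CTCF-dRBR, and 9 in CTCF-dRBR without that library. CTCFL (chromosome 20, 56071022 to 56100708, minus strand) was below 1 CPM in every library and was not tested.

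The 8 other members were compared by limma-voom, and 0 of 8 passed an adjusted p of 0.05 (limma-voom, adjusted over 14044 genes), as did 0 of all genes tested (0.0%). At an unadjusted p under 0.05 this fit had 3569 genes (25.4%), VEZF1 alone among the members, and edgeR's quasi-likelihood test likewise called 0 genes, with 3460 at an unadjusted p under 0.05. With sample weights (voomWithQualityWeights) 6 of 8 passed, as did 68.2% of all genes. With the GC trend removed, on log2(TPM + 1) and on log2(TPM + 0.1), 0 of 8 passed where 9.62%, 4.45% and 4.51% of all genes did. The median log2 fold change of the 8 members was 0.10, beside -0.01 for all genes tested, and 5 of 8 were positive. Only CTCF and VEZF1 had no overlap between the groups, both higher in every CTCF-dRBR library. Of all genes tested 20.0% were higher in this way and 17.5% lower, so that 2 of 8 is near the background.

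**Figure D2:**
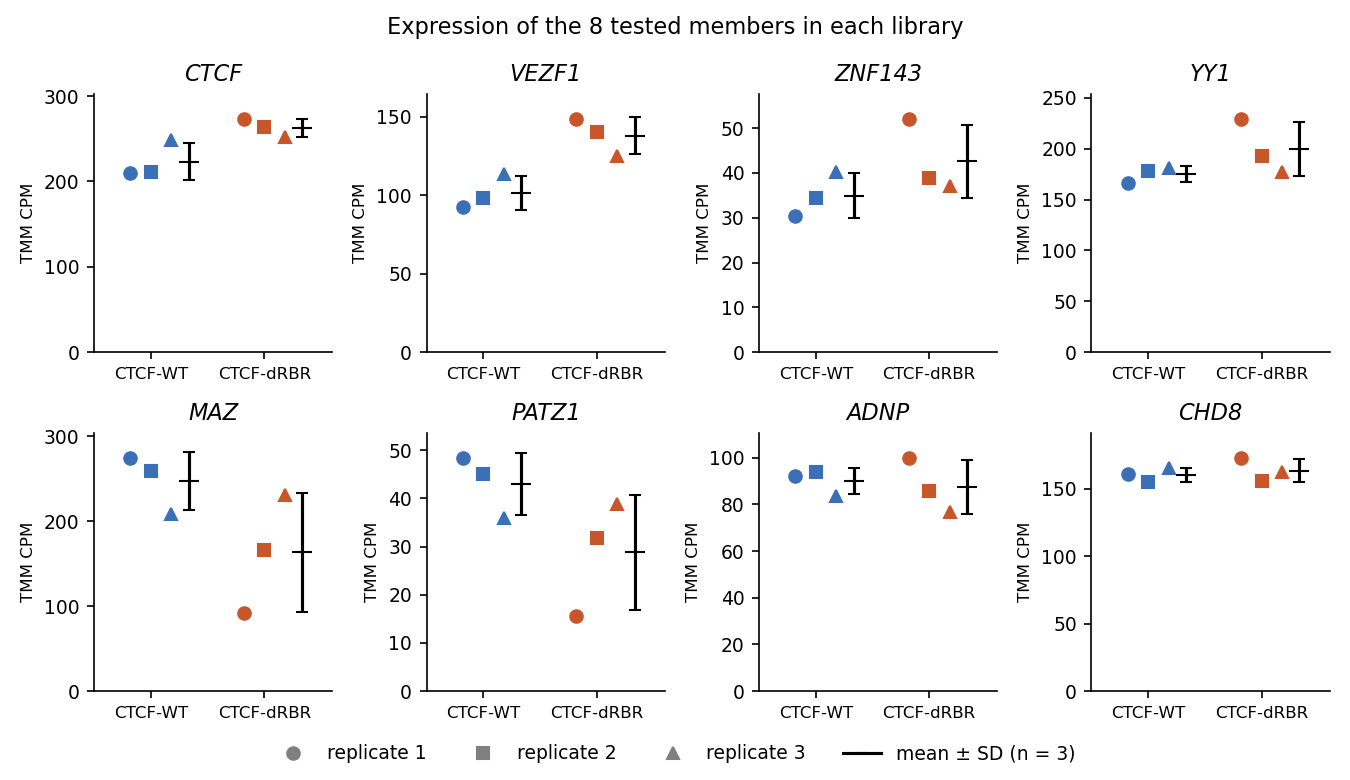
TMM-normalized CPM of the 8 tested members in each library, with the group mean and SD (n = 3) in black and axes from 0. CTCF and VEZF1 are higher in all 3 CTCF-dRBR libraries than in any CTCF-WT library, and MAZ and PATZ1 are lowest in CTCF-dRBR replicate 1.

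CTCF itself was at 209.9, 211 and 249 CPM in CTCF-WT and at 273, 264 and 252 CPM in CTCF-dRBR. The groups did not overlap, but the lowest CTCF-dRBR library and the highest CTCF-WT library were close. The difference was 1.18-fold (95% confidence interval 0.995 to 1.40, log2 0.24 ± 0.10 SE, limma-voom adjusted p = 0.202) and did not pass the threshold. Without CTCF-dRBR replicate 1 it was 0.21 on the log2 scale and with the GC trend removed 0.16, neither past the threshold, and it passed with sample weights (log2 0.30, adjusted p = 0.00112 by voomWithQualityWeights). Over its 20 alternatives the adjusted p ran from 0.00112 to 0.510. A difference of up to 1.40-fold is inside the interval, and transgene and endogenous mRNA cannot be told apart in it.

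VEZF1, a zinc-finger protein that binds runs of G, had the smallest unadjusted p of the members. It was at 92.9, 98.5 and 114 CPM in CTCF-WT and at 148, 141 and 125 CPM in CTCF-dRBR. Each CTCF-dRBR library was above each CTCF-WT library, with the smallest gap again between the replicates 3. The difference was 1.36-fold (95% confidence interval 1.11 to 1.65, log2 0.44 ± 0.12 SE, unadjusted p = 0.00904), and the limma-voom adjusted p of 0.140 did not pass. By p it ranked 907 of the 14044 genes in this fit. It passed with DESeq2 (adjusted p = 0.0337, where 11.5% of all genes passed) and with the GC trend removed and CTCF-dRBR replicate 1 left out (log2 0.28, limma-voom adjusted p = 0.0234, where 24.4% passed), but with the GC trend removed and all libraries kept it was 0.23 with an adjusted p of 0.0844 by limma-voom. Over its 20 alternatives the adjusted p ran from 0.000298 to 0.482, and the direction was the same in each. VEZF1 lies on chromosome 17 at 56048908 to 56065620, minus strand. Its counts were not whole in any of the 6 libraries, so RSEM shared some of its reads with another gene, and its pseudogene VEZF1P1 received 2.01 to 13.1 counts.

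ZNF143 and YY1, the promoter-bound members, had values of the same sign and smaller size. ZNF143 (chromosome 11, 9481866 to 9550071, plus strand), which binds the SBS motif at promoters, was at 30.3, 34.3 and 40.2 CPM in CTCF-WT and at 51.9, 38.8 and 37.1 CPM in CTCF-dRBR. Its high value was that of CTCF-dRBR replicate 1, and the other libraries of the groups overlapped. The log2 fold change was 0.25 ± 0.17 SE (limma-voom adjusted p = 0.335), and 0.12 without CTCF-dRBR replicate 1. YY1 (chromosome 14, 100704635 to 100749125, plus strand), a factor that dimerizes to bridge enhancers and promoters, was at 167, 178 and 181 CPM in CTCF-WT and at 229, 193 and 177 CPM in CTCF-dRBR. The groups overlapped here as well. Its log2 fold change was 0.18 ± 0.12 SE (limma-voom adjusted p = 0.325), and 0.07 without CTCF-dRBR replicate 1. The processed copies YY1P1 and YY1P2 had at most 1 count.

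MAZ and PATZ1, which bind GC-rich motifs, had the largest log2 differences of the members in the fit of all libraries, with the opposite sign. Without CTCF-dRBR replicate 1 that of VEZF1 (0.38) was larger than theirs. MAZ (chromosome 16, 29817427 to 29822485, plus strand) was at 274, 259.7 and 209 CPM in CTCF-WT and at 91.8, 166 and 231 CPM in CTCF-dRBR. CTCF-dRBR replicate 3 lay inside the range of CTCF-WT, and CTCF-dRBR replicate 1 lay far below the others. The log2 fold change was -0.68 ± 0.33 SE (limma-voom adjusted p = 0.226, 95% confidence interval -1.46 to 0.11), and -0.33 without CTCF-dRBR replicate 1. PATZ1 (chromosome 22, 31721790 to 31742332, minus strand), a BTB zinc-finger repressor, was at 48.3, 45.0 and 35.9 CPM in CTCF-WT and at 15.7, 31.8 and 38.9 CPM in CTCF-dRBR. The groups overlapped in the same way. Its log2 fold change was -0.60 ± 0.32 SE (limma-voom adjusted p = 0.246, 95% confidence interval -1.37 to 0.16), and -0.28 without CTCF-dRBR replicate 1.

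MAZ and PATZ1 also had the transcripts of highest GC content among the members. The longest annotated transcript was 66.4% GC for MAZ and 58.9% for PATZ1, against 49.3% for CHD8, 47.5% for YY1, 45.8% for CTCF, 42.2% for VEZF1, 41.9% for ZNF143 and 40.5% for ADNP. The first 60 coding bases are shown for the 2 members at each end of this order from the GRCh37 genome, with every G and C in capitals and each read 5′ to 3′ from the start codon:
MAZ (chr16:29818023-29818082, plus strand): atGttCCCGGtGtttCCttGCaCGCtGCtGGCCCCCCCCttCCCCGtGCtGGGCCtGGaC
PATZ1 (chr22:31741529-31741588, minus strand): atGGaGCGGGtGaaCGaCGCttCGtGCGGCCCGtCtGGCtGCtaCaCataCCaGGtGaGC
ZNF143 (chr11:9492856-9492915, plus strand): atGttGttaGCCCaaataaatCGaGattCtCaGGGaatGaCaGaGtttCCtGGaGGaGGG
ADNP (chr20:49520474-49520533, minus strand): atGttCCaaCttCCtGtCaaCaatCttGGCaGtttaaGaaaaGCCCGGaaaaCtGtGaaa
These stretches are 68.3%, 63.3%, 45.0% and 40.0% GC. The first 60 bases do not follow the order of the transcripts for every member, as those of YY1 are also 68.3% GC and those of VEZF1 58.3%. All 4 lie in a coding exon of the annotated main transcript of their gene. Over the whole coding sequence the share was 69.0% in MAZ and 43.8% in ADNP.

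The levels of MAZ and PATZ1 followed the GC trend of the libraries. Ranked by CPM, the 6 libraries stood in the same order for MAZ, for PATZ1 and for the GC trend, from CTCF-WT replicate 1 at the top through CTCF-WT replicate 2, CTCF-dRBR replicate 3, CTCF-WT replicate 3 and CTCF-dRBR replicate 2 to CTCF-dRBR replicate 1. How many of all genes, or of those of high GC content, have this order is not given here. The highest library exceeded the lowest 2.98-fold for MAZ and 3.08-fold for PATZ1, against 1.11-fold for CHD8 and 1.299-fold for CTCF. With the GC trend removed the log2 difference of MAZ turned to 0.27 (limma-voom adjusted p = 0.334) and that of PATZ1 was -0.04 (limma-voom adjusted p = 0.754). Over their 20 alternatives the adjusted p ran from 0.00119 to 0.760 for MAZ and from 0.00239 to 0.997 for PATZ1, the lowest being those with sample weights. Across the 8 members, Pearson's r between GC content and log2 fold change was -0.89 and Spearman's rho -0.62, which is a description of 8 genes measured in the same libraries. After removal of the trend r was 0.36, but the removal takes out a relation to GC content by construction. What produced the trend in these libraries was not tested.

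**Figure D3:**
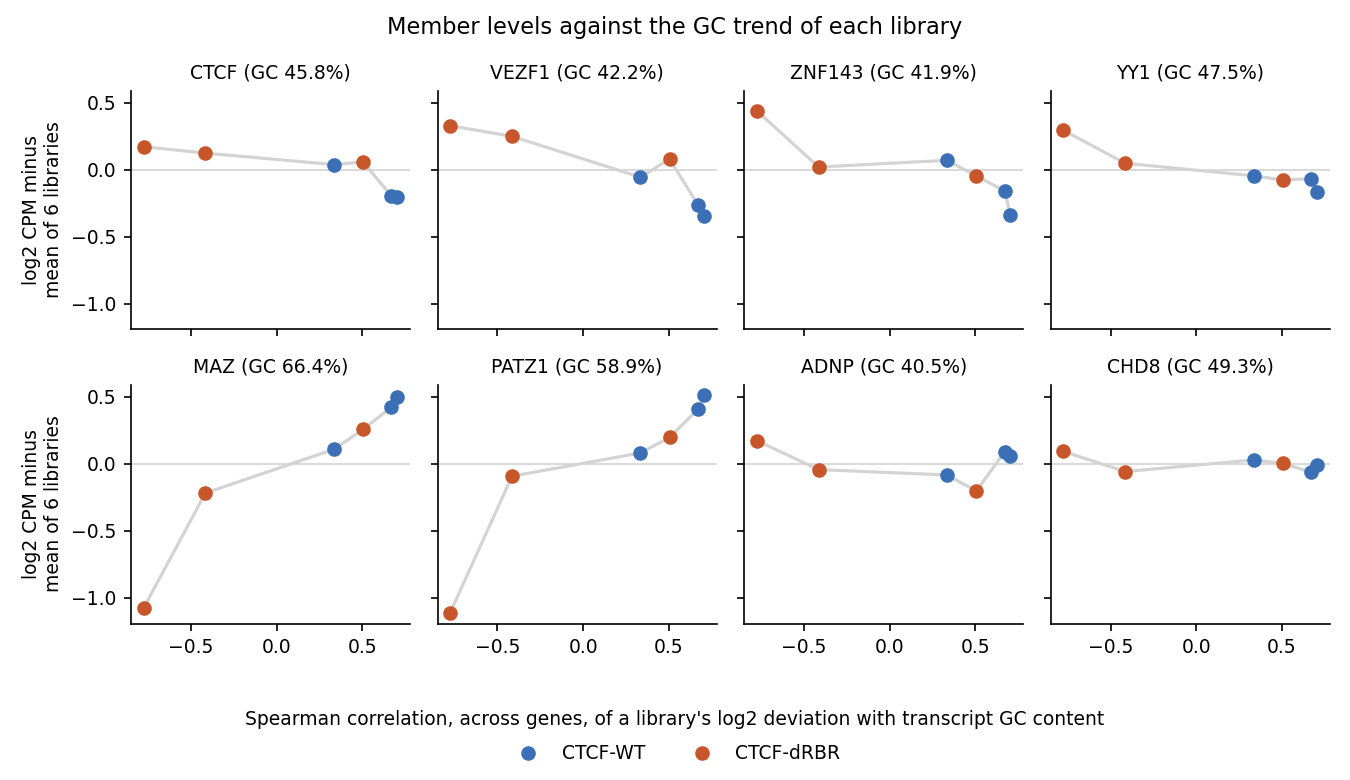
Log2 CPM of each member minus its mean over the 6 libraries, plotted against each library's Spearman correlation with transcript GC content, with CTCF-WT in blue and CTCF-dRBR in orange. MAZ and PATZ1 climb with the GC trend in every step, while VEZF1 and CTCF run the other way except that CTCF-dRBR replicate 3 lies above CTCF-WT replicate 3.

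CTCF and VEZF1 ranked the libraries alike, with all 3 CTCF-dRBR libraries on top in the order 1, 2, 3 and CTCF-WT below in the order 3, 2, 1. This is the reverse of the GC order except for 1 pair, CTCF-dRBR replicate 3 and CTCF-WT replicate 3. How common this order is among all genes is not given here.

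ADNP and CHD8 had the smallest log2 fold changes in the fit of all libraries, whereas with the GC trend removed that of ADNP was the largest of the 8 members in size. ADNP (chromosome 20, 49505453 to 49547974, minus strand), a homeodomain and zinc-finger protein, was at 92.2, 94.0 and 83.4 CPM in CTCF-WT and at 99.7, 85.8 and 76.8 CPM in CTCF-dRBR. Its highest and its lowest library were both CTCF-dRBR. The log2 fold change was -0.05 ± 0.12 SE (limma-voom adjusted p = 0.768, 95% confidence interval -0.35 to 0.24), and with the GC trend removed it was -0.30 (limma-voom adjusted p = 0.0902, and 0.0547 to 0.946 over its 20 alternatives). CHD8 (chromosome 14, 21853353 to 21924285, minus strand), a chromodomain helicase, was at 161, 155 and 165 CPM in CTCF-WT and at 172, 155 and 162 CPM in CTCF-dRBR. All values lay within 1.11-fold of each other. The log2 fold change was 0.03 ± 0.09 SE (limma-voom adjusted p = 0.843), with a 95% confidence interval of -0.18 to 0.23 that bounds the difference to 1.18-fold upward.

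**Figure D4:**
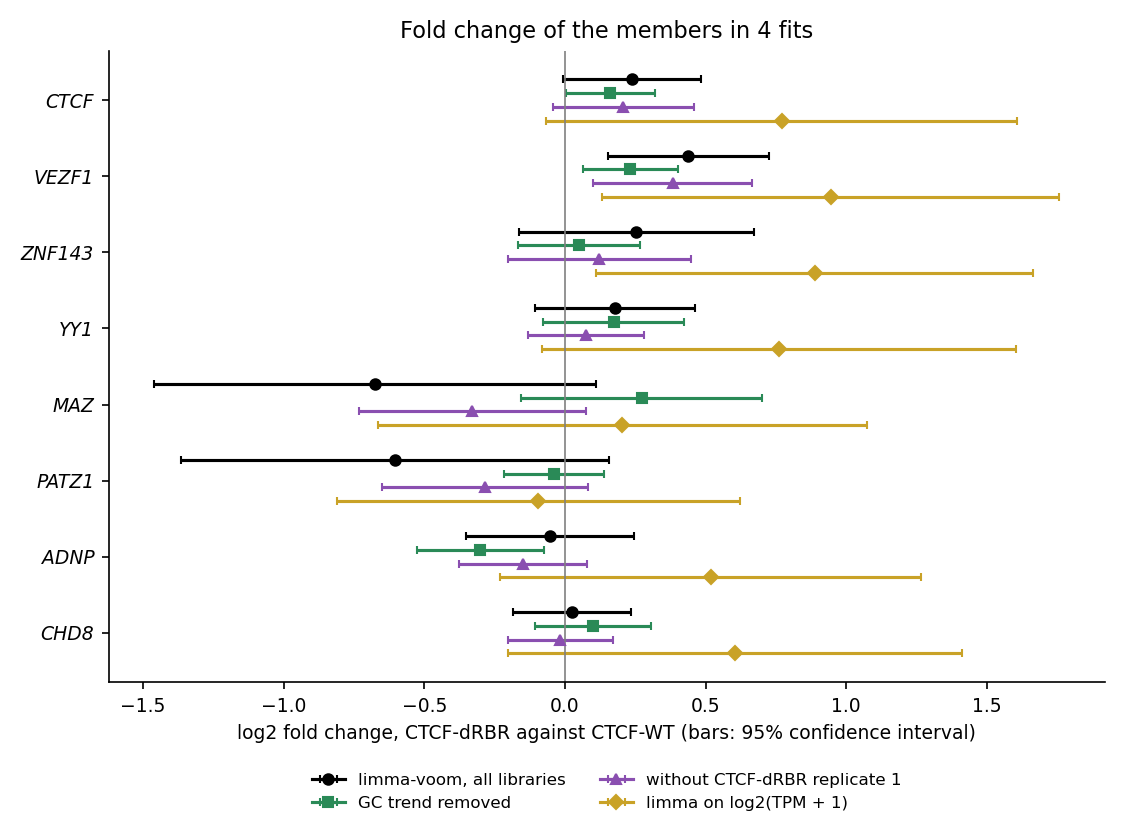
Log2 fold change of CTCF-dRBR against CTCF-WT with its 95% confidence interval for 8 members in 4 fits. The estimates of VEZF1, CTCF, ZNF143 and YY1 stay above 0 in all 4 fits, and MAZ moves from -0.68 to 0.27 when the GC trend is removed. The fit on log2(TPM + 1), whose median over all genes is 0.45, lies above the fit of all libraries for each member.

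Ratios of TPM to CTCF within a library do not depend on the total to which that library was scaled. They do depend on the effective transcript lengths used for each library, and they do not remove its GC trend. In expected counts MAZ and CTCF were at 13443 and 10300 in CTCF-WT replicate 1. In CTCF-dRBR replicate 1 they were at 2745 and 8158, so ratios of counts differ from those of TPM given here. None of the ratios was corrected for GC content. CTCF is here the gene total, in which the endogenous fusion and the transgene are not separated. MAZ transcripts per CTCF transcript were 3.53, 3.23 and 2.60 in CTCF-WT and 1.45, 2.22 and 2.73 in CTCF-dRBR (exact permutation p = 0.2). PATZ1 per CTCF was 0.299, 0.272 and 0.191 in CTCF-WT and 0.0766, 0.156 and 0.199 in CTCF-dRBR (exact permutation p = 0.2). Both sets overlapped through CTCF-WT replicate 3 and CTCF-dRBR replicate 3. VEZF1 per CTCF was 0.576, 0.611 and 0.614 in CTCF-WT and 0.697, 0.703 and 0.657 in CTCF-dRBR, with no overlap and a log2 difference of 0.19 (exact permutation p = 0.1, the smallest possible). The share of all genes whose ratio to CTCF has no overlap is not given here. On CPM, 20.0% of all genes tested were higher without overlap and 17.5% lower. YY1 per CTCF was 1.06, 1.17 and 1.13 against 1.29, 1.10 and 0.966 (exact permutation p = 1.0). The log2 ratios of ZNF143, ADNP and CHD8 to CTCF differed by 0.16, -0.23 and -0.16 (exact permutation p = 0.5, 0.2 and 0.4). Without CTCF-dRBR replicate 1 the differences were 0.021 for ZNF143 and -0.30 for CHD8, and those of MAZ and PATZ1, -0.58 and -0.90 with all libraries, were -0.33 and -0.50. These were 7 ratios in all, and with 3 libraries against 3 none could reach 0.05.

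The expression pattern of CTCF was shared most closely by YBX3 (r = 0.996), PTPRJ (0.991) and the processed pseudogene RPL12P4 (0.989) among 9180 genes with at least 10 CPM, over 6 libraries. YBX3, a cold-shock RNA-binding protein, ran from 85.2 CPM in CTCF-WT replicate 1 to 102 CPM in CTCF-dRBR replicate 1 (log2 0.15, limma-voom adjusted p = 0.302). PTPRJ, a receptor phosphatase, ran from 35.8 to 45.2 CPM between the same libraries (log2 0.19, limma-voom adjusted p = 0.268). RPL12P4 covered a wider span, from 14.2 to 60.4 CPM (log2 1.24, limma-voom adjusted p = 0.158). With so few libraries high values are common, as 668 of the genes (7.28%) had r above 0.9. Of the members VEZF1 was nearest to CTCF (r = 0.97, rank 47), followed by ZNF143 (0.85) and YY1 (0.75), CHD8 was at 0.52 and ADNP at -0.19, and PATZ1 (-0.79) and MAZ (-0.80) were opposite.

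Partners of the members were read from 6 lists with 46 genes, of which 45 were tested. By limma-voom 0 of 45 passed an adjusted p of 0.05. At an unadjusted p under 0.05 there were 2 higher and 8 lower, beside 12.6% and 12.8% of all genes. Without overlap 4 were higher (8.89%) and 14 lower (31.1%), beside 20.0% and 17.5% of all genes. Without CTCF-dRBR replicate 1 3 of the 45 passed, namely ASH2L, WDR5 and RUVBL1, all lower, where 3.9% of all genes passed. They were singled out after their values were seen.

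**Figure D5:**
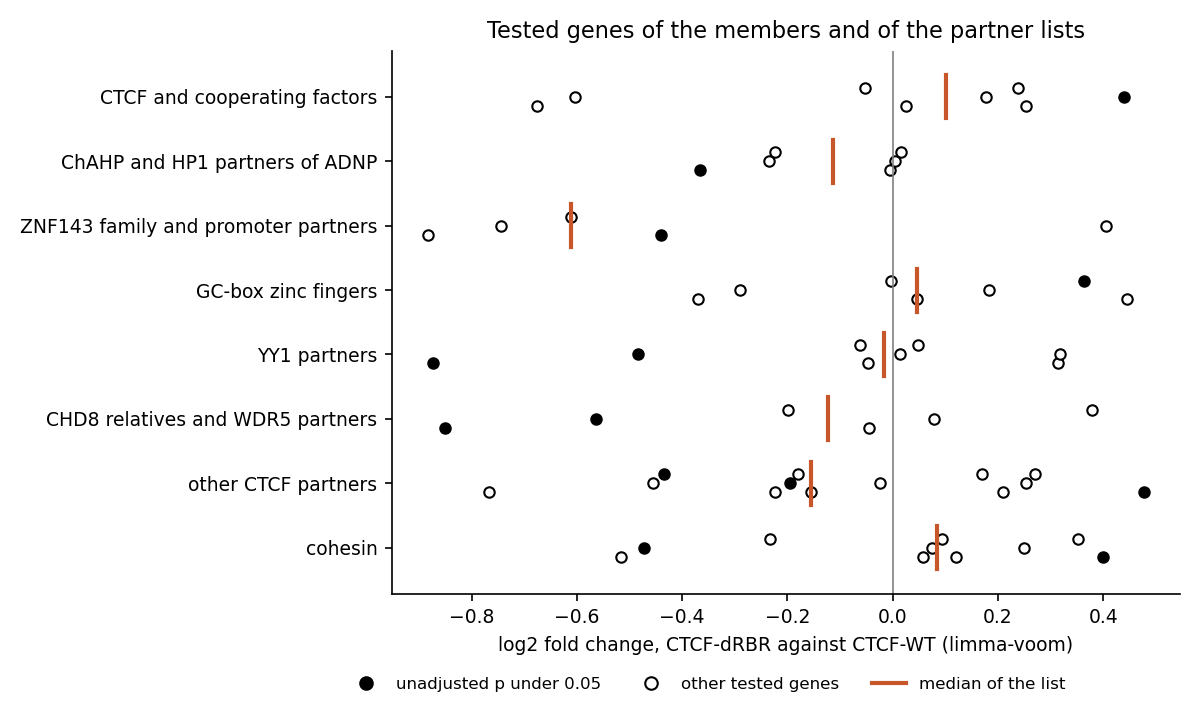
Log2 fold change (limma-voom) of each tested gene of the members, the 6 partner lists and cohesin, filled where the unadjusted p was under 0.05, with the median of each list as a bar. The medians lie between -0.61 for the ZNF143 list and 0.10 for the members, and no gene passed an adjusted p of 0.05.

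Of the CHD8 relatives and WDR5 partners (median -0.12, 6 of 6 tested) ASH2L and WDR5, both core subunits of the H3K4 methyltransferase complexes, had no overlap. ASH2L was at 111, 130.4 and 115 CPM in CTCF-WT and at 93.4, 59.3 and 54.3 CPM in CTCF-dRBR. Here CTCF-dRBR replicate 1 was the nearest to CTCF-WT, unlike in MAZ and PATZ1. Its log2 fold change was -0.85 ± 0.21 SE (limma-voom adjusted p = 0.126), -0.86 with the GC trend removed (limma-voom adjusted p = 0.0436) and -1.07 without CTCF-dRBR replicate 1 (limma-voom adjusted p = 0.0214), with 0.000143 to 0.951 over its 20 alternatives. WDR5 was at 70.8, 71.5 and 68.0 CPM in CTCF-WT and at 40.1, 47.7 and 54.0 CPM in CTCF-dRBR (log2 -0.56, limma-voom adjusted p = 0.116), and its log2 difference was -0.18 with the GC trend removed. The remodelers CHD9 (log2 0.38, adjusted p = 0.291) and CHD6 (log2 0.08, adjusted p = 0.51) had the smallest p of the positive values in this list, and CHD9 was at 0.12 without CTCF-dRBR replicate 1 and at 0.082 with the GC trend removed.

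Among the YY1 partners (median -0.02, 8 of 9 tested, ZFP42 below the filter) the helicases RUVBL1 and RUVBL2 of the INO80 complex had the smallest p. RUVBL1 was at 113, 114 and 107 CPM in CTCF-WT and at 72.5, 78.0 and 88.1 CPM in CTCF-dRBR (log2 -0.48 ± 0.10 SE, limma-voom adjusted p = 0.112). Its groups were apart, and it was -0.31 with the GC trend removed, where it passed (limma-voom adjusted p = 0.0346, and 0.000178 to 0.927 over its 20 alternatives). RUVBL2 had a log2 fold change of -0.87 (limma-voom adjusted p = 0.152), which was -0.18 with the GC trend removed and -0.61 without CTCF-dRBR replicate 1, and its transcript is 61.4% GC. In the other direction YY2, a retrocopy-derived paralog of YY1 at 1.25 to 1.80 CPM, had 0.32 (limma-voom adjusted p = 0.271), with counts that were shared with other genes, and YAF2 had 0.31 (adjusted p = 0.335). YAF2 was at 0.12 without CTCF-dRBR replicate 1 and at 0.059 with the GC trend removed.

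In the list of ZNF143 relatives and promoter factors (median -0.61, 5 of 5 tested), 4 values were negative. The median was -0.20 with the GC trend removed and -0.32 without CTCF-dRBR replicate 1. NRF1, an activator of nuclear genes for mitochondria, was at 33.0, 32.0 and 30.5 CPM in CTCF-WT and at 22.4, 22.7 and 25.0 CPM in CTCF-dRBR (log2 -0.44 ± 0.11 SE, limma-voom adjusted p = 0.128). Its 3 CTCF-dRBR libraries lay close together below CTCF-WT, and the value was -0.40 with the GC trend removed, where it passed (limma-voom adjusted p = 0.0288), as it did with DESeq2 (adjusted p = 0.00107). Over its 20 alternatives the adjusted p ran from 0.000268 to 0.611. On log2(TPM + 1) the value was 0.27, where the median of all genes was 0.45. ZNF76, the paralog of ZNF143, was at -0.61 (limma-voom adjusted p = 0.213), and the ETS factor GABPA at 0.41 (adjusted p = 0.204). Without CTCF-dRBR replicate 1 they were at -0.32 and 0.26, and with the GC trend removed at -0.22 and 0.077.

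Of the ChAHP and HP1 partners of ADNP (median -0.11, 6 of 6 tested) CBX5, or HP1 alpha, was at 546, 459.99 and 416 CPM in CTCF-WT and at 327, 389 and 384 CPM in CTCF-dRBR (log2 -0.37, limma-voom adjusted p = 0.176, and -0.59 with the GC trend removed). CHD4, the remodeler in the ChAHP complex with ADNP, was at -0.22 (limma-voom adjusted p = 0.206, and -0.017 with the GC trend removed), and the highest were ADNP2 at 0.02 and CBX3 at 0.00. CBX3, or HP1 gamma, was at -0.15 without CTCF-dRBR replicate 1 and at -0.27 with the GC trend removed, where it passed (limma-voom adjusted p = 0.0371, and 0.0130 to 0.988 over its 20 alternatives). Among 7 GC-box zinc fingers (median 0.05) SP3 was at 0.36 (limma-voom adjusted p = 0.191) and ZNF148 at 0.45 (adjusted p = 0.217). Without CTCF-dRBR replicate 1 they were at 0.22 and 0.23, and with the GC trend removed at 0.050 and 0.089. ZBTB17 was at -0.37 (limma-voom adjusted p = 0.324) and ZBTB7A at -0.29 (adjusted p = 0.476). Both were nearer 0 without that library (-0.14 and -0.052) and turned positive with the GC trend removed (0.36 and 0.30).

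Of the 13 other CTCF partners (median -0.15) TOP2B, the topoisomerase found at loop anchors, was at 782, 780.4 and 916 CPM in CTCF-WT and at 1304, 1136 and 1018 CPM in CTCF-dRBR (log2 0.48 ± 0.13 SE, limma-voom adjusted p = 0.138). Its groups were apart, and with the GC trend removed the log2 difference was 0.12. BPTF, the large subunit of the NURF remodeler, was at 0.25 (limma-voom adjusted p = 0.211), at 0.16 without CTCF-dRBR replicate 1 and at 0.11 with the GC trend removed. On the low side were SRA1, a noncoding RNA and protein gene whose RNA has been found with CTCF (-0.44, adjusted p = 0.149), and PARP1, which modifies CTCF (-0.20, adjusted p = 0.191). With the GC trend removed they were at -0.24 and -0.13. The 10 cohesin genes had a median of 0.08, with 1 higher and 1 lower at an unadjusted p under 0.05 and 0 past the adjusted threshold by limma-voom. That median turned to -0.21 with the GC trend removed and to -0.074 without CTCF-dRBR replicate 1.

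Annotated genes that overlap the members had few counts. For 7 of the members a gene of the table overlaps, and the largest count relative to its member was that of the antisense RNA of ADNP, with 48 to 86 counts, at most 2.08% of ADNP. All others were under 0.5% of their member in each library. The deposited counts are labelled as stranded, but how the counting used strand is not stated in the methods.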

How the data were processed

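Total RNA of SEM cells was prepared with ribosomal RNA depletion and sequenced (single-end per the labels, paired-end per the methods). Per the submitters' processing notes and the methods, the authors trimmed reads with Trim Galore (0.6.3), aligned them to hg19 (GRCh37) with STAR (2.7.9a) and quantified Gencode genes with RSEM (1.3.1). The deposited expected counts are RSEM's estimated counts, not normalized. The deposited TPM were scaled by the authors for effective transcript length and to 1 total per library.

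Genes under 1 CPM in all 6 libraries and the 92 spike-in rows were removed, leaving 14044 genes. Counts were normalized by TMM (edgeR 4.0.16) and compared by limma-voom (limma 3.58.1, R 4.3.3) with no covariate, as in the methods. Two-sided p-values were adjusted by Benjamini-Hochberg across the whole table and called under 0.05. CPM are TMM-normalized, and 3 counts (0.0564 to 0.0999 CPM) is the floor that a count of 0 allows. Ratios and TPM of members were compared by exact permutation tests. For the GC trend, each library's log2 CPM deviation (prior count 1) was smoothed by loess (span 0.5, degree 2) against GC content of the longest transcript (Gencode lifted to GRCh37) and subtracted, for the 13654 genes with a value (97.2%).

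Alternatives were edgeR's quasi-likelihood test and DESeq2 (1.42.0) on rounded counts, voomWithQualityWeights, limma-trend on log2 TPM with a pseudocount of 1 or 0.1 (genes of at least 1 TPM in any library), RLE or library-size scaling, 3 other filters, the replicate block, the GC correction and leaving out each library. The GC correction without CTCF-dRBR replicate 1 was added after seeing the data. Scripts were tested on simulated counts. The members and lists were chosen with earlier results of these data known. Named were all members, in each partner list the 2 genes of smallest p in each direction, and the 3 genes most correlated with CTCF.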

Additional observations from a re-analysis of the deposited data

How the results depend on the processing

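The call of 0 genes past the threshold held in 13 of 20 alternatives and moved in 7: 1619 genes passed with DESeq2, 9583 with voomWithQualityWeights, 569 and 577 with limma-trend on log2 TPM at a pseudocount of 1 and of 0.1, 1314 with the GC trend removed and 3263 with the GC trend removed and CTCF-dRBR replicate 1 left out, and leaving out each library in turn gave 0 to 535, the 535 without CTCF-dRBR replicate 1. Members past the threshold were 1 with DESeq2, 6 with voomWithQualityWeights and 1 with the GC trend removed and CTCF-dRBR replicate 1 left out, and 0 in each of the 6 fits that left out a library. Genes of the partner and cohesin lists were 8, 36, 1, 1, 7 and 20 in the same order of fits as above, and 0 to 4 when a library was left out. The 1 gene of the TPM fits was KLF13, higher, and the 4 without CTCF-dRBR replicate 1 were ASH2L, SMC1A, WDR5 and RUVBL1, lower, all named after their values were seen. DESeq2 passed VEZF1 at 0.45 on the log2 scale and voomWithQualityWeights passed VEZF1 at 0.50, CTCF at 0.30, ZNF143 at 0.19, YY1 at 0.12, MAZ at -0.61 and PATZ1 at -0.49, and VEZF1 passed at 0.28 in the added fit. The cause of these differences was not tested.

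Directions reversed for members near 0 or of high GC content. MAZ was 0.20 and 0.21 in the TPM fits, where the median of all genes was 0.45 and 0.56, 0.27 with the GC trend removed, 0.28 with the replicate block and GC removal and 0.068 in the added fit, where PATZ1 was 0.00040. ADNP was 0.022 by library size only and 0.52 and 0.56 in the TPM fits, and leaving out a library gave -0.15 to 0.037. CHD8 was -0.0035 with voomWithQualityWeights and -0.058 with no filter (median of all genes 0.19), and -0.017 to 0.062 when a library was left out. The TPM difference of MAZ was -38.2 TPM rescaled over protein-coding genes, that of PATZ1 was -1.30 to 1.14 TPM and the log2 ratio of YY1 to CTCF differed by -0.12 to 0.087 when a library was left out. When a library was left out the log2 fold change of MAZ was -0.98 to -0.33 and that of VEZF1 0.37 to 0.52. Most partner genes named as lower were positive on log2(TPM + 1). These were NRF1, ZNF76, RUVBL1, CBX5, CHD4, ZBTB17, ZBTB7A, SRA1 and PARP1, at 0.063 (RUVBL1) to 0.50 (CHD4). RUVBL2, WDR5 and ASH2L stayed negative there, at -0.34, -0.019 and -0.041.

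With the replicate number as a block 0 genes passed by limma-voom (1423 at an unadjusted p under 0.05), CTCF was 0.24 with an adjusted p of 0.432 and VEZF1 0.44 with an adjusted p of 0.419. Deviations of libraries with the same number correlated at r = -0.34, 0.10 and -0.47, and no library correlated best with its own number. These deviations were not corrected for the GC trend, so they cannot decide whether libraries of the same number share a culture or batch. The main fit had no block because the methods of the study state no covariate. CTCFL was tested only with no filter (log2 1.49, limma-voom adjusted p = 0.495).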
